A study of Mus musculus with 2 samples.

Results

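The genes of histamine and lipid mediator synthesis were followed through E-cadherin+ mouse bone marrow cells: Hdc, Slc18a2, Alox5, Alox5ap, Ltc4s, Alox15, Ptgs1 and Hpgds. They are 8 of the 31053 gene rows of the count matrices, taken by symbol. Marrow cells of FVB mice positive for E-cadherin had been sorted into a cKIT+ and a cKIT- fraction, and each was sequenced as 1 single-cell library. The study's results call the animals wild type, whereas a legend gives Vav-iCre;mTmG mice, several of which were the source, and no age is stated. Vav-iCre drives recombination throughout the haematopoietic lineage, and in mTmG animals it switches a membrane reporter without deleting an endogenous gene. With 1 library per sort, there is no replicate, so no test was made, and every interval printed is a 95% interval for counting error only.

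Histidine decarboxylase (Hdc) makes histamine, and the vesicular monoamine transporter encoded by Slc18a2 loads it into granules. Arachidonate 5-lipoxygenase (Alox5), helped by the membrane protein FLAP (Alox5ap), makes leukotriene A4, which Ltc4s conjugates with glutathione to leukotriene C4. Alox15 encodes the 12/15-lipoxygenase, Ptgs1 the constitutive cyclooxygenase COX-1, and Hpgds the haematopoietic synthase of prostaglandin D2. Basophils and mast cells are the classic sources of histamine, and both also release leukotrienes, while prostaglandin D2 is best known from mast cells.

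The genes are scattered over the mouse genome (GRCm38). Hdc lies on chromosome 2 from 126593667 to 126619299, Slc18a2 on chromosome 19 from 59260896 to 59296012, and Alox5 on chromosome 6 from 116410077 to 116461178. Alox5ap lies on chromosome 5 from 149264767 to 149288153. Ltc4s and Alox15 are both on chromosome 11, from 50236461 to 50238616 and from 70344152 to 70352031. Ptgs1 lies on chromosome 2 from 36230426 to 36252272 and Hpgds on chromosome 6 from 65117293 to 65144908. Antisense genes overlap Slc18a2 (Gm29261), Alox5ap (Gm19719) and Ltc4s (Gm26542), and no gene on the same strand overlaps a member.

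The 250 bases before the RefSeq transcription start are shown for the 3 members with substantial levels in Mcpt8-expressing cells that are in the promoter table used. Capitals mark GATAA or its reverse complement TTATC, the core of the site bound by GATA factors such as Gata2, searched on both strands. The sequences are from RefSeq, build GRCm38.p6, written 5′ to 3′ on the strand of the gene. The Hdc stretch (chr2:126618679-126618928, minus strand) lies inside the annotated span of the gene, which begins farther upstream. The Slc18a2 stretch is chr19:59260628-59260877 (plus strand), and the Alox5 stretch is chr6:116461179-116461428 (minus strand).
Hdc: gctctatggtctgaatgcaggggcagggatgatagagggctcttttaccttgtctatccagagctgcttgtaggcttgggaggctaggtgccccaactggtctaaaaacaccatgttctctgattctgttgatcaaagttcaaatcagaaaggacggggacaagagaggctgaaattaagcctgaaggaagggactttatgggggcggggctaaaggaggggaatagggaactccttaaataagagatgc
Slc18a2: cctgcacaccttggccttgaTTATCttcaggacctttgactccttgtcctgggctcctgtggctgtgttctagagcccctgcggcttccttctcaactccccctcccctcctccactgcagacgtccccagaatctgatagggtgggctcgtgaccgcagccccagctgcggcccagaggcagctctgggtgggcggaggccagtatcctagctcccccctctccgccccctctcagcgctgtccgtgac
Alox5: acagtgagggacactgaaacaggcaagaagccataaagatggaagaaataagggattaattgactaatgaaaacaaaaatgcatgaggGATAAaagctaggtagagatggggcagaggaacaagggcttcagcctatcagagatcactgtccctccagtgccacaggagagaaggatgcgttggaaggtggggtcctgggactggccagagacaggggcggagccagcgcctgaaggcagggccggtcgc
The motif begins 230 bases before the start in Slc18a2 (position -230) and 162 bases before it in Alox5 (position -162). These letters were not in this window of Hdc, nor in those of Ltc4s, Ptgs1 and Hpgds. Of all 32851 promoters in the table, 22.6% hold the motif in the same 250 bases, and of the 8 members 6 are in the table, without Alox5ap and Alox15.

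Filtering left 6479 cKIT+ and 3662 cKIT- cells, with medians of 13039 and 4416.5 unique molecular identifiers (UMIs, each marking one captured RNA molecule). The study reports more sequencing reads per cell for the cKIT+ than for the cKIT- library, and the part of sequencing in this gap was not tested. A total of 10 cell barcodes occurred in both libraries. Kit, the gene of the sorted receptor, had 37.1 CPM (counts per 1000000 UMIs) in the cKIT+ and 0.875 CPM in the cKIT- library. A cell was gated by at least 3 UMIs of a lineage gene and at least 2000 CPM of Mcpt8, 1000 CPM of Prg2 or 500 CPM of Gzmb. Cells past several gates were set aside, and the remaining cells were grouped by summed lists of other lineages' genes. The Mcpt8 gate held 3444 cKIT+ cells (53.2%) and 2651 cKIT- cells (72.4%). The Prg2 gate held 255 cKIT+ cells and the Gzmb gate 289, and in the cKIT- library no cell passed either of them alone.

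The gates were read against markers of the lineages. In Mcpt8-gated cells the basophil genes were high. Prss34, a basophil protease, had 19230 CPM in the cKIT+ and 47533 CPM in the cKIT- library, and Fcer1a, the IgE receptor alpha chain, had 641 and 1566 CPM. Only Itga2 of the 10 basophil markers was near 0 (0.12 and 0.82 CPM). Prg2-gated cells carried the eosinophil granule genes Epx (2274 CPM) and Prg3 (1528 CPM) and little of the mature eosinophil receptor Ccr3 (1.90 CPM). Elane, a neutrophil primary granule gene, stood at 962 CPM in them. The rest of the 9 eosinophil markers are not reported here. Gzmb-gated cells carried the mast cell genes Cma1 (310 CPM), Kit (187 CPM), Mitf (85.7 CPM) and Cpa3 (1703 CPM), but Tpsb2, Tpsab1 and Mcpt1 were at 0 and Mcpt2, Mcpt4 and Mrgprb2 at 1.16 CPM or less. They are therefore named by their gate. The 71 cKIT+ cells of the haemoglobin list served as the background for both libraries, since erythroid cells should lack the basophil genes. The list sums Hba-a1, Hba-a2, Hbb-bs, Hbb-bt, Car1, Car2 and Klf1, so cells without haemoglobin could enter it. These 71 cells held 132 CPM of Mcpt8 and 130 CPM of Prss34.

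Hdc, Alox5ap and Alox15 were higher in the cKIT- library than in the cKIT+ library. Over all kept cells Alox15 had 32.1 CPM in cKIT+ and 248 CPM in cKIT- cells, a ratio of 7.72 (7.38 to 8.07). Alox5ap had 526 and 1745 CPM, a ratio of 3.32 (3.27 to 3.36). Hdc had 237 and 510 CPM, a ratio of 2.15 (2.11 to 2.20). A level of 20 CPM in 1 library was reached by 5 members, of which these 3 were higher past 2-fold among cKIT- cells and 0 were lower past 2-fold, where 9.56% and 6.35% of all 6075 genes above that minimum were. In such sums, fewer cells of a type and less RNA per cell cannot be told apart. Alox5 (144.5 and 262.5 CPM, 1.82-fold) and Slc18a2 (57.2 and 83.5 CPM, 1.46-fold) leaned the same way within 2-fold. The 3 members under the minimum were on the other side. Ptgs1 had 12.995 CPM in cKIT+ and 1.92 CPM in cKIT- cells, so it was 6.75 times higher in cKIT+ cells (5.00 to 9.35). Hpgds was 3.28 times higher (2.33 to 4.74) and Ltc4s 1.65 times (1.27 to 2.18). UMIs per cell, which keep the depth gap between the libraries, gave ratios of 3.43 for Alox15, 1.47 for Alox5ap and 0.956 for Hdc. On that scale 1.81% of all genes were 2-fold higher and 57.3% 2-fold lower in cKIT- cells.

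**Figure D1:**
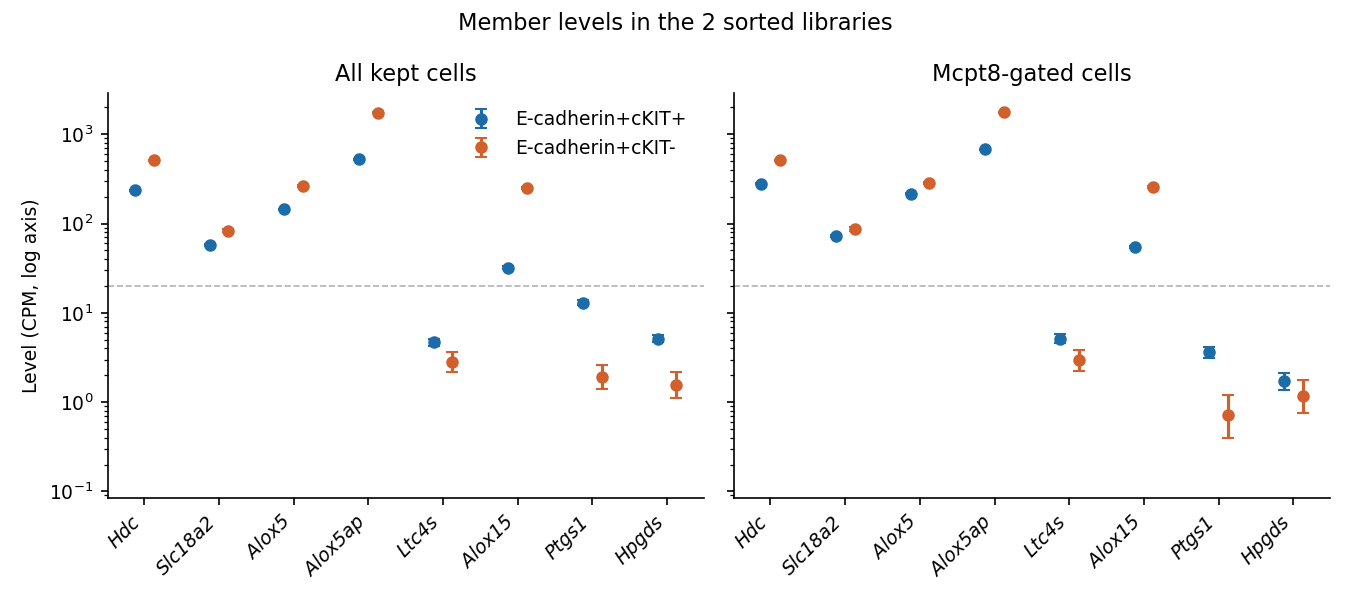
Level of each member in CPM on a log axis in the cKIT+ (blue) and cKIT- (orange) library, over all kept cells (left) and Mcpt8-gated cells (right). Points are the level of the library, bars the exact Poisson 95% interval, and the dashed line the 20 CPM minimum. Alox15 shows the widest gap in favour of cKIT- cells in both panels (32.1 against 248 CPM, and 54.6 against 254 CPM), and Ltc4s, Ptgs1 and Hpgds lie under the line.

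Mcpt8-gated cells of the sorts were then compared with each other, which leaves out most cells of other lineages. Alox15 had 54.6 CPM in the cKIT+ and 254 CPM in the cKIT- library, 4.66-fold (4.45 to 4.88). Alox5ap had 682 and 1764 CPM, 2.59-fold (2.55 to 2.62). Both passed 2-fold, 2 of 5 members, against 6.71% of 5861 genes higher and 4.21% lower. Hdc had 280 and 510 CPM, 1.82-fold (1.78 to 1.87), and so was under 2-fold within the gate. Alox5 (217 and 286 CPM, 1.32-fold) and Slc18a2 (72.55 and 86.6 CPM, 1.19-fold) differed least among the 5. From UMIs per cell Alox15 kept a ratio of 2.29, Alox5ap had 1.27 and Hdc 0.897. Genes of the neutrophil lineage moved with the sort inside the gate. The summed S100a8 list (5 genes) had 4078 CPM in cKIT+ and 426 CPM in cKIT- cells, and the summed Elane list (4 genes) 8163 and 4702 CPM, with none of the 9 genes at 0 in either library. Gated cells with 2000 CPM of the S100a8 list or 500 CPM of Elane and Prtn3 together were left out, a choice made after seeing the values. This kept 3084 of 3444 cKIT+ and 2642 of 2651 cKIT- cells, and the ratios were 4.37 for Alox15 and 2.49 for Alox5ap. In cKIT- cells the Elane list sum thus came mainly from its other genes, Mpo and Ctsg. Leaving out gated cells with 2000 CPM of any list, also chosen afterwards, kept only 152 cKIT+ and 1299 cKIT- cells. The ratios were then 2.59 for Alox15, 2.14 for Alox5ap, 1.64 for Hdc and 0.896 for Alox5.

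Hdc was found in each of the 3 gates. In cKIT+ cells it had 280 CPM (275 to 284) in the Mcpt8 gate, 393 CPM (367 to 421) in the Prg2 gate and 81.9 CPM (71.2 to 93.7) in the Gzmb gate. The Prg2 gate was thus 1.41 times the Mcpt8 gate (1.31 to 1.51), and the intervals of the 3 gates did not overlap. Cells of the Elane list, which carry primary granule genes and lie outside the gates, had 208 CPM. They took 21.04% of the library's Hdc UMIs and 23.9% of all its UMIs. Cells of the S100a8 list had 77.2 CPM. Hdc was at 2.60 CPM in the haemoglobin list and at 0 of 139513 UMIs in cells of the C1qa list, macrophage genes, which allows up to 21.5 CPM. Within the Prg2 gate, the 204 cells with more Epx than Elane UMIs had 425 CPM (392 to 460) and the 41 with more Elane 327 CPM (284 to 374), with medians of 3976.5 and 13064 UMIs per cell. In the Gzmb gate 26.9% of the 212 Hdc UMIs came from 5 cells.

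Slc18a2, which stores what Hdc makes, was ordered differently. It had 112 CPM (99.1 to 125) in the Gzmb gate, 72.55 CPM (70.2 to 74.9) in the Mcpt8 gate and 37.1 CPM (29.3 to 46.3) in the Prg2 gate of the cKIT+ library. The Gzmb gate therefore had the highest Slc18a2 and the lowest Hdc of the gates, and the Prg2 gate the reverse. Neither Slc18a2 ratio to the Mcpt8 gate passed 2-fold (1.54 and 0.511). The Prg2 ratio was 0.745 without the cells that held neutrophil-lineage genes at the limits above, a choice made after seeing the values. Slc18a2 passed 2-fold lower in the Prg2 gate under 6 of 15 alternatives, TMM scaling and thinning to 2000 UMIs among them. It was at 26.7 CPM in the Elane list, 8.08 CPM in the S100a8 list and 1.30 CPM in the haemoglobin list.

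Of the leukotriene genes, Alox5 had its highest level of the 3 gates in Mcpt8-gated cells. It had 217 CPM (213 to 221) in Mcpt8-gated, 108 CPM (95.5 to 121) in Gzmb-gated and 31.8 CPM (24.7 to 40.4) in Prg2-gated cells of the cKIT+ library. In that library the Mcpt8 gate held 85.0% of the Alox5 UMIs and 56.6% of all UMIs. The Prg2 gate was 6.82 times lower than the Mcpt8 gate (5.36 to 8.80). The Gzmb gate was 2.01 times lower (1.79 to 2.28), at the edge of the 2-fold limit, and 7 of 15 alternatives put it within 2-fold. Alox5ap had 682 CPM in the Mcpt8 gate, 244 CPM in the Prg2 gate and 131 CPM in the Gzmb gate. It was not restricted to the gates, with 639 CPM in the S100a8 list and 1144 CPM in the 48 cells of the Ly6c2 list, monocyte genes, of the cKIT+ library. In the same Ly6c2-list cells Alox5 was at 10.2 CPM (2.11 to 29.9), which overlapped the 6.49 CPM (2.11 to 15.2) of the haemoglobin list.

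Ltc4s RNA was scarce. It had 5.16 CPM (266 UMIs, 4.55 to 5.81) in Mcpt8-gated cKIT+ cells and 2.97 CPM (58 UMIs, 2.26 to 3.84) in Mcpt8-gated cKIT- cells. The haemoglobin list had 1 UMI, 1.30 CPM with an interval of 0.033 to 7.24. That is too few UMIs to tell the Mcpt8 gate from this background or to equate them. Within the cKIT+ library the S100a8 list had 1.54 CPM (0.665 to 3.03) and the Elane list 3.53 CPM (2.79 to 4.42), both under the Mcpt8 gate. The Prg2 gate (3.33 CPM), the Gzmb gate (2.70 CPM) and the cells past no gate (7.93 CPM) had intervals that overlapped that of the Mcpt8 gate. The highest level was 71.7 CPM in the 47 cells of the C1qa list, from 10 UMIs (34.4 to 132), followed by 15.7 CPM in the Cd74 list of antigen-presentation genes, where 80.0% of 15 UMIs came from 5 cells.

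In the cKIT+ library Alox15 was the member most concentrated in the Mcpt8 gate, which held 96.2% of its UMIs and 56.6% of all UMIs. In the cKIT- library the gate held 87.6% of its UMIs and 85.4% of all UMIs, and the cells past no gate held 11.9% of its UMIs. Among cKIT+ cells Alox15 had 54.6 CPM (52.6 to 56.6) in the Mcpt8 gate, 2.38 CPM (5 UMIs) in the Prg2 gate and 0.772 CPM (2 UMIs) in the Gzmb gate. The haemoglobin list had 2.60 CPM (0.315 to 9.38), so both of these gates were at background. The ratio of the Mcpt8 gate to the Prg2 gate was 23.0 (9.83 to 70.8) and to the Gzmb gate 70.7 (19.5 to 584). The Elane list was at 0.734 CPM and the S100a8 list at 1.15 CPM. When cells past several gates were kept in each gate, the ratios of the Prg2 and Gzmb gates to the Mcpt8 gate were 0.259 and 0.158.

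Hpgds and Ptgs1, the prostaglandin genes, were found mainly outside the Mcpt8 gate in the cKIT+ library. That gate held 18.7% of the Hpgds UMIs there. In the cKIT- library it held 63.9% of 36 Hpgds UMIs and 85.4% of all UMIs. Hpgds had 24.3 CPM (63 UMIs, 18.7 to 31.1) in Gzmb-gated cells and 1.71 CPM (1.37 to 2.10) in Mcpt8-gated cells of the cKIT+ library, a ratio of 14.3 (10.2 to 19.9). Its UMIs were in 48 of the 289 Gzmb-gated cells. The Mcpt8 level did not exceed the 3.90 CPM of the haemoglobin list. Hpgds was higher still in the C1qa list (495 CPM, 385 to 626) and the Cd74 list (147 CPM, 124 to 174). The Gzmb gate held 43.6 CPM of the summed C1qa list (3 genes) and 693 CPM of the summed Cd74 list (4 genes), against 8.86 and 48.6 CPM in the Mcpt8 gate. Gated cells with 2000 CPM of any list were left out, a choice made after seeing the values. Hpgds then had 23.5 CPM (54 UMIs) in 271 Gzmb-gated cells and 2.43 CPM (2 UMIs) in 152 Mcpt8-gated cells. The part of such cells in the Hpgds level was not tested further. Ptgs1 had 179 CPM (116 to 265) in the C1qa list, 75.0 CPM (67.8 to 82.9) in the S100a8 list and 22.1 CPM (20.1 to 24.1) in the Elane list. Those lists of neutrophil-lineage genes held 40.6% (Elane) and 32.9% (S100a8) of its cKIT+ UMIs, and the Mcpt8 gate 15.8%. Of all cKIT+ UMIs these groups held 23.9%, 5.70% and 56.6%. The Prg2 gate had 13.3 CPM (8.84 to 19.2) and the Gzmb gate 3.09 CPM.

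Counted by gate, 3 members (Alox5, Alox5ap, Alox15) of 5 above the minimum were at least 2-fold lower in the Prg2 than in the Mcpt8 gate and 0 higher, where 5.92% of 6050 genes were lower and 5.45% higher. TMM scaling gave 7.93% lower and 3.97% higher. Leaving out cells with neutrophil-lineage genes at the limits above, chosen after seeing the values, kept 97 Prg2-gated and 3084 Mcpt8-gated cells. The same 3 members were then lower, where 7.26% of genes were lower and 11.9% higher. In the Gzmb gate 4 of 6 members were lower than in the Mcpt8 gate (Hdc, Alox5, Alox5ap, Alox15) and 1 was higher (Hpgds), where 6.92% of 6317 genes were lower and 10.7% higher. With TMM scaling these shares were 12.1% lower and 5.49% higher, and the same 5 members were past 2-fold. The Mcpt8 gate of the cKIT+ library is the shared reference of both comparisons. In both, Alox15 reached 20 CPM in the Mcpt8 gate only, and Hpgds reached it in the Gzmb gate only.

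**Figure D2:**
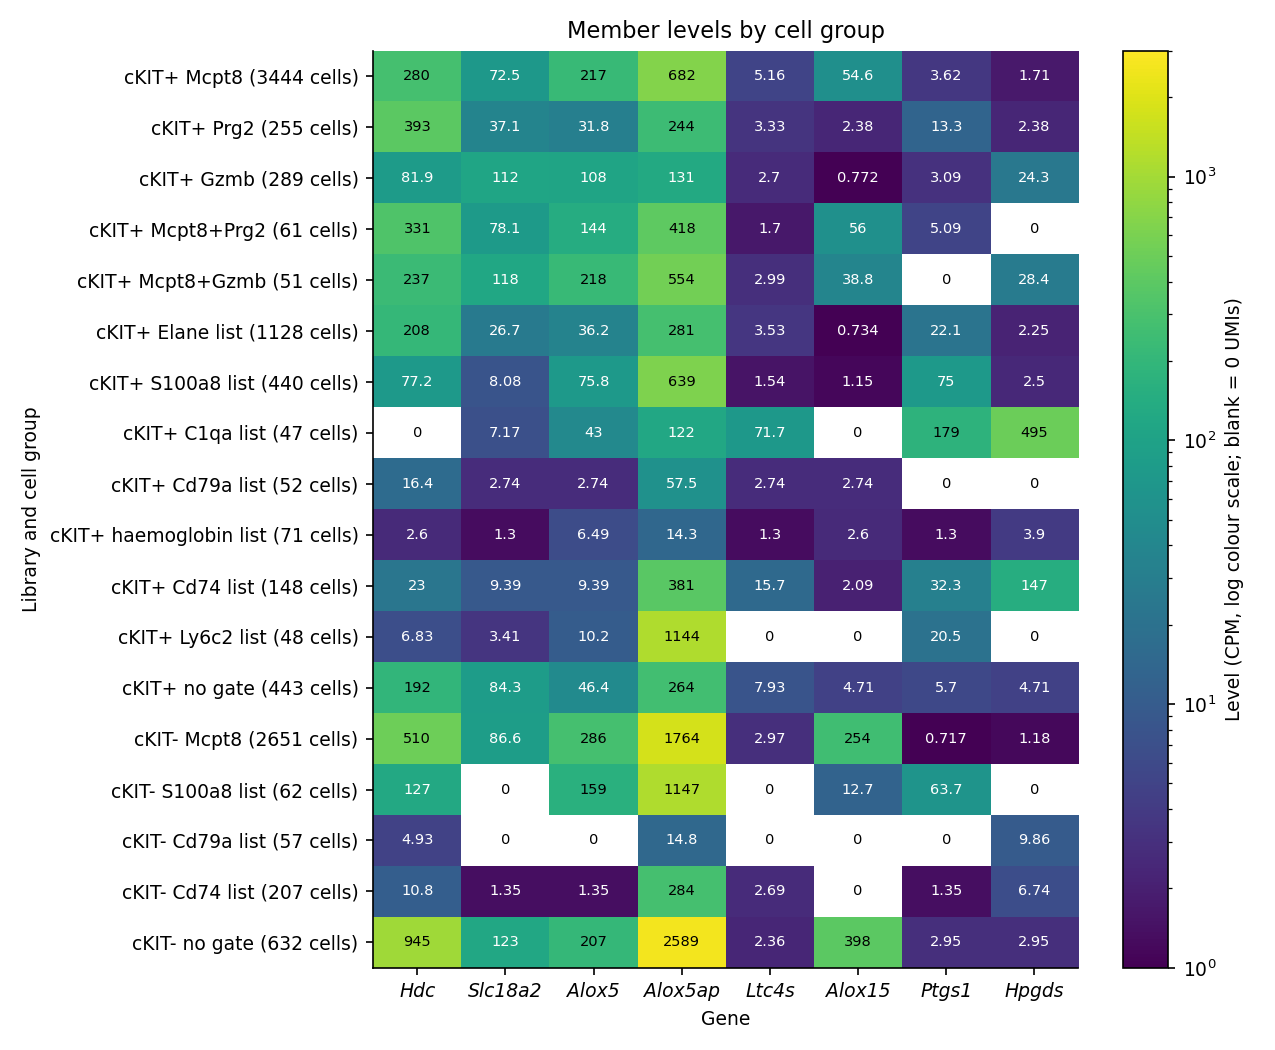
Level of each member (columns) in CPM for every gate or gene-list group of at least 40 cells (rows, with the library and the number of cells), on a log colour scale with the value printed and 0 UMIs left blank. Alox15 passes 20 CPM in rows with the Mcpt8 gate and in the cKIT- cells past no gate (398 CPM) and in no other, whereas Hpgds peaks in the C1qa list (495 CPM).

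Shares of cells with a UMI depend on depth, so they were also taken after 2000 UMIs had been drawn from every cell, without 345 shallower cells of the cKIT+ and 176 of the cKIT- library. In Mcpt8-gated cells Alox15 was then seen in 11.5% of cKIT+ (10.5% to 12.7%) and 44.1% of cKIT- cells (42.2% to 46.0%). Without thinning the shares were 43.3% and 78.0%. Alox5ap was seen in 71.8% and 95.9% of thinned cells, and Hdc in 42.6% and 65.2%. For Alox5 the shares were 35.4% and 42.8%, and for Slc18a2 14.2% and 17.1%. In the haemoglobin list, with a median of 4841 UMIs before thinning against 14171 and 6256 in the Mcpt8 gates, the shares were 3.33% for Alox15 and 1.67% for both Hdc and Alox5ap. Hdc was seen in 56.5% of Prg2-gated and 10.8% of Gzmb-gated cells, and Hpgds in 5.59% of Gzmb-gated and 0.415% of Mcpt8-gated cKIT+ cells. At 2000 UMIs 69.7% of Mcpt8-gated cKIT- cells still held 3 or more UMIs of Alox5ap, against 19.7% of cKIT+ cells.

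**Figure D3:**
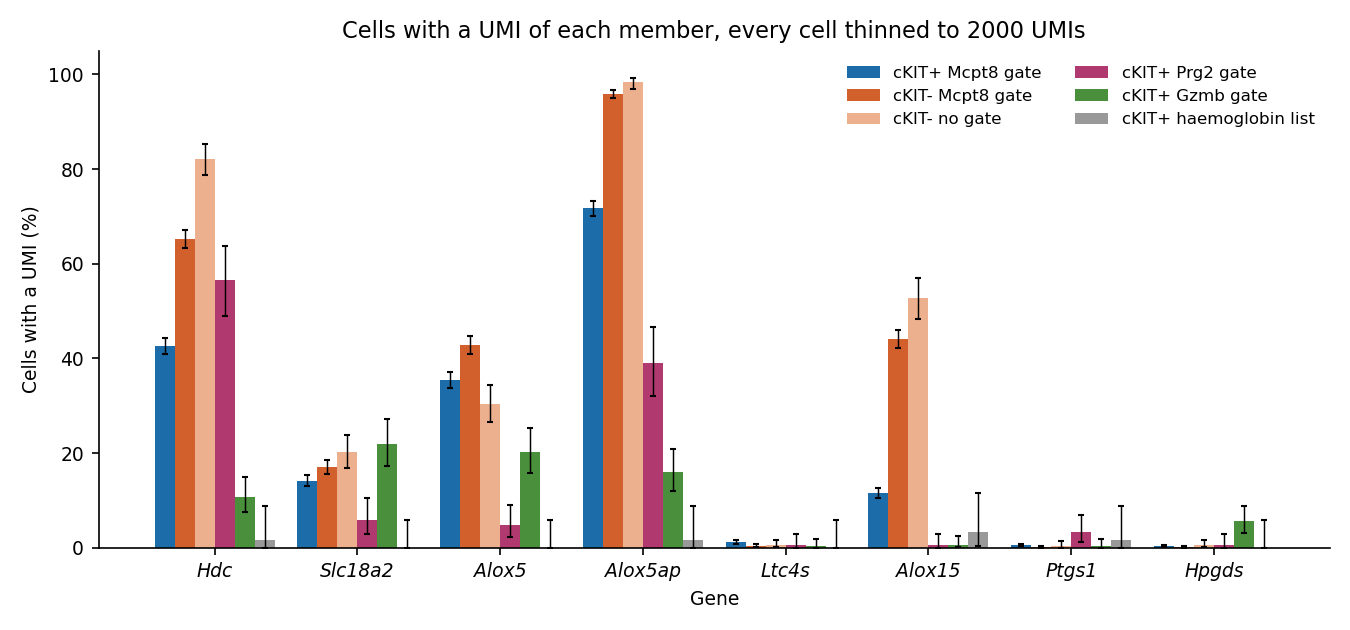
Share of cells with at least 1 UMI of each member after thinning every cell to 2000 UMIs, in 6 cell groups, with exact binomial 95% intervals. The cKIT- cells of the Mcpt8 gate exceed the cKIT+ cells of the same gate for Hdc, Slc18a2, Alox5, Alox5ap and Alox15. The haemoglobin list, the background, stays at 3.33% or less.

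The Mcpt8 gate spans a wide range of Prss34, so its cells were ordered by Prss34 level and cut into 4 equal groups in each library. In cKIT+ cells Alox15 was higher in each step, with 17.3, 37.5, 69.6 and 95.9 CPM. Alox5 went the same way, from 154 CPM in the lowest to 290 CPM in the highest group, and Alox5ap from 509 to 949 CPM. Hdc stayed between 264 and 307 CPM and Slc18a2 between 65.8 and 76.3 CPM, with no such order. Median depth was alike over the groups (13789 to 14853 UMIs). Over the same groups the neutrophil gene Elane went from 497 down to 48.5 CPM.

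In cKIT- cells the order was the opposite for Alox15, which had 426, 286, 219 and 208 CPM from the lowest to the highest Prss34 group. Alox5ap had 2790 CPM in the lowest and 1572 CPM in the highest group, and Hdc 847 and 441 CPM. Slc18a2 was at 117 and 71.1 CPM. Alox5 differed from the others, with 240 CPM in the lowest group and 282 to 301 CPM in the rest. Depth moved with these groups, with medians of 3261 UMIs in the lowest and 9318 in the highest, and its part was not tested beyond thinning. After thinning, Alox15 was seen in 55.6% of cells of the lowest and 35.2% of the highest group, and Hdc in 80.0% and 56.6%.

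**Figure D4:**
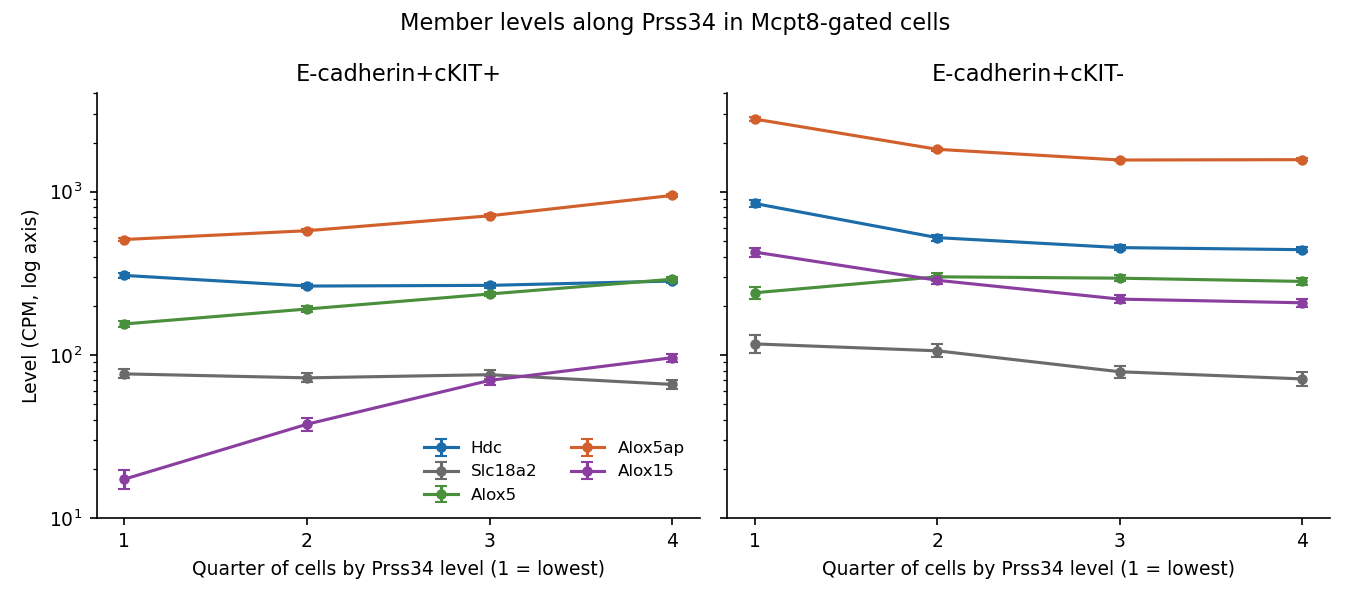
Level of 5 members in CPM on a log axis over 4 equal groups of Mcpt8-gated cells ordered by Prss34, for the cKIT+ (left) and cKIT- (right) library, with exact Poisson 95% intervals. The Alox15 line climbs from 17.3 to 95.9 CPM in cKIT+ cells and descends from 426 to 208 CPM in cKIT- cells.

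Cell cycle and depth were read in the same cells. Mcpt8-gated cells with at least 500 CPM of 10 mitosis genes had less Alox15 than the other cells of the gate, with 49.5 against 64.5 CPM in cKIT+ and 206 against 311 CPM in cKIT- cells. For Hdc the values were 279 and 281 CPM in cKIT+ cells, and 442 and 590 CPM in cKIT- cells. The cycling cells were also the deeper ones (medians of 17339 against 11334 and of 10636 against 4302 UMIs). When the gated cells were cut in 3 by UMI count, Alox15 had 89.0 CPM in the shallowest and 35.9 CPM in the deepest cKIT+ cells, and 416 and 191 CPM in cKIT- cells. Alox5ap had 877 and 573 CPM, and 2621 and 1398 CPM. The shallowest cKIT+ cells had up to 11781 UMIs and the deepest cKIT- cells at least 9087. The part of depth in the difference between the sorts was not tested.

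Members were also looked for together in single cells of the Mcpt8 gate, thinned to 2000 UMIs. Alox5 and Alox5ap, partners in leukotriene A4 synthesis, were both seen in 26.1% of cKIT+ and 40.7% of cKIT- cells. Hdc with both of them was seen in 11.99% and 26.5%, and Hdc with Slc18a2 in 6.46% and 11.2%. All of Alox5, Alox5ap and Ltc4s, the leukotriene C4 route, were seen in 14 of 3377 and 5 of 2593 cells. Among cKIT+ cells with Alox5ap, 13.2% (11.9% to 14.7%) held Alox15, and among those without it 7.23% (5.67% to 9.06%). In cKIT- cells the shares were 44.8% (42.8% to 46.8%) and 27.4% (19.1% to 36.9%), the second of them from 106 cells. Alox5 was seen in 36.6% (34.1% to 39.2%) of cKIT+ cells with Hdc and 34.6% (32.5% to 36.7%) of those without, and these intervals overlapped.

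The 632 cKIT- cells past no gate (17.3% of the library) had the highest Hdc, Slc18a2, Alox5ap and Alox15 of the gate and gene-list groups with at least 40 cells. Slc18a2 was at 123 CPM (107 to 141), an interval that overlapped that of the cKIT+ Gzmb gate (99.1 to 125). These 632 cells held 965 CPM of Mcpt8, 2039 CPM of Ms4a2, the IgE receptor beta chain, 1695 CPM of Gata2 and 302 CPM of Prss34, at a median of 2700 UMIs. A split made after seeing the values put 595 of them at 1000 CPM or more of Fcer1a, Ms4a2 and Cd200r3 together. Their members were high, with 963 CPM of Hdc (916 to 1012), 2630 CPM of Alox5ap and 411 CPM of Alox15 (381 to 444), all above the Mcpt8 gate of that library (510, 1764 and 254 CPM). Alox5 was lower, at 210 against 286 CPM. The 632 cells together also had 3497 CPM of the chemokine gene Ccl3, which had 1343 CPM in the Mcpt8 gate. In the cKIT+ library 148 of 443 cells past no gate met the same split, with 320 CPM of Hdc (289 to 353), 452 CPM of Alox5ap and 12.8 CPM of Alox15 (7.30 to 20.7). All 443 had 192, 264 and 4.71 CPM of these genes. Adding the cells of this split to the Mcpt8 gate of both libraries left Alox15 and Alox5ap as the members past 2-fold.

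Beyond the members, 63 of 64 genes of a list of histamine, leukotriene, lipoxygenase, prostanoid and platelet-activating factor genes are in the matrices. In Mcpt8-gated cells 16 of the genes that are no members reached 20 CPM. Of these, 5 were 2-fold higher and 1 lower in cKIT- cells, against 6.71% and 4.21% of all genes. Their median log2 ratio was -0.04 against 0.05 over all genes. The minimum counted as reached in 1 library alone. Ptger4, Ptgir and Pla2g15 reached it in cKIT- cells only and Tbxas1 in cKIT+ cells only, the sides on which they were higher. Receptors for prostaglandins were among the higher ones. Ptger4, a receptor for prostaglandin E2, had 6.125 CPM in cKIT+ and 32.2 CPM in cKIT- cells, Ptger3, another, 32.1 and 82.5 CPM, and the prostacyclin receptor Ptgir 7.37 and 24.6 CPM. Cotl1, a 5-lipoxygenase-binding protein, had 197 and 445 CPM and Pla2g15, a lysosomal phospholipase, 12.9 and 29.2 CPM. Tbxas1, thromboxane synthase, was lower, with 30.5 and 10.2 CPM. Lta4h, which turns leukotriene A4 into leukotriene B4, had 64.5 and 58.2 CPM, and the leukotriene B4 receptor Ltb4r1 154 and 171 CPM. Over all kept cells 5 of 17 were higher and 4 lower, against 9.56% and 6.35% of all genes (median log2 ratio -0.10 against 0.05). Among the 17, the lower ones added Lta4h, Mgst2 and Ptges3 to Tbxas1.

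**Figure D5:**
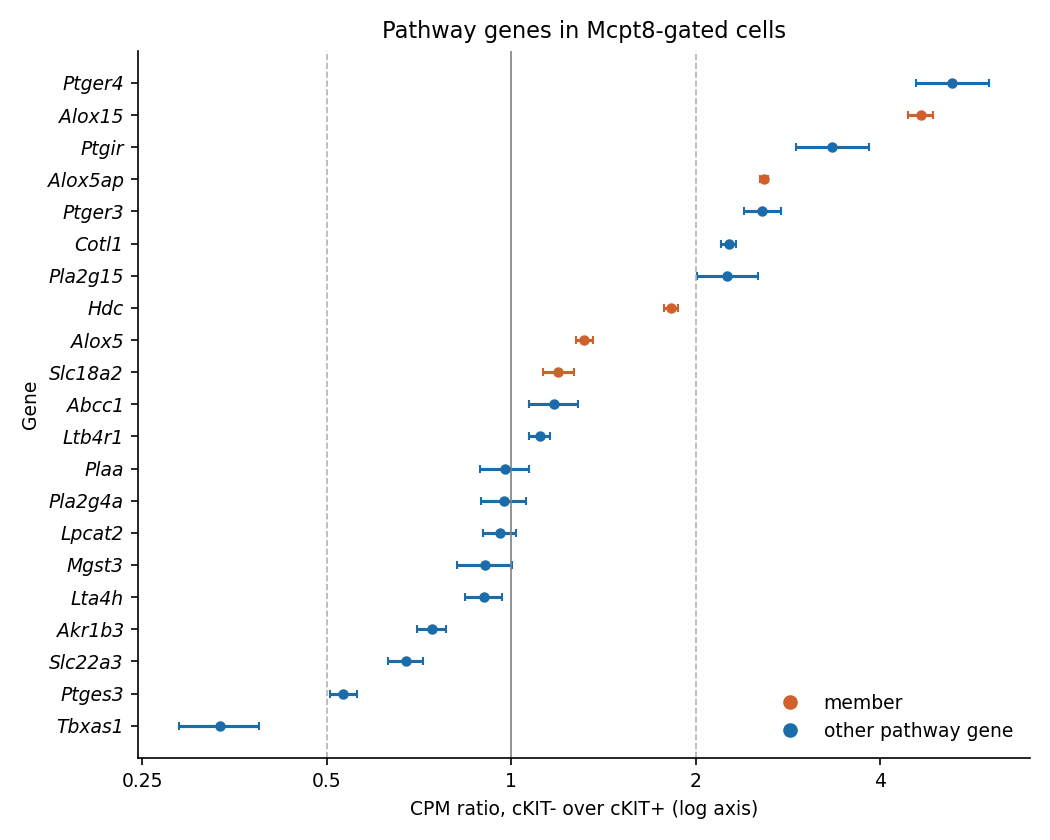
CPM ratio of cKIT- over cKIT+ Mcpt8-gated cells on a log axis for the 21 pathway genes with at least 20 CPM in 1 library, members in orange and other genes in blue, with exact 95% counting intervals and dashed lines at 2-fold. Ptger4 (5.25) and Alox15 (4.66) lie farthest to the right, and Tbxas1 (0.334) farthest to the left.

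The same list was compared between gates of the cKIT+ library. Prg2-gated cells had more Lta4h (234 against 64.5 CPM in the Mcpt8 gate), Tbxas1 (90.7 against 30.5 CPM) and Maoa, a monoamine oxidase (20.9 against 8.82 CPM). They had less Slc22a3, a transporter of organic cations that include histamine (25.7 against 85.1 CPM), Cotl1 (97.4 against 197 CPM) and Ptger3 (2.38 against 32.1 CPM). These were 3 higher and 3 lower of 15 genes, against 5.45% and 5.92% of all genes. Prg2-gated cells with neutrophil-lineage genes were kept in these values. The median log2 ratio over the 15 genes was -0.03 against 0.07 over all genes. Maoa reached 20 CPM in the Prg2 gate only and Ptger3 in the Mcpt8 gate only. Gzmb-gated cells had 5 higher and 2 lower of 14, against 10.7% and 6.92% of all genes, with medians of 0.47 and 0.16. Slc22a3 (194 CPM), Ltb4r1 (327 CPM), Akr1b3 (260 CPM), Cbr1 (32.0 CPM) and Lpcat2, which acts in the synthesis of platelet-activating factor (183 CPM), were higher. Tbxas1 (13.5 CPM) and Ptger3 (15.4 CPM) were lower. Both reached 20 CPM in the Mcpt8 gate only, and Cbr1 in the Gzmb gate only. Alox5 and Lta4h were thus ordered oppositely between the Prg2 and Mcpt8 gates.

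The genes whose log2(CPM + 10) followed each member best were found over the 16 groups of at least 50 cells, among 5748 genes, as a description. The groups share 2 libraries and differ in depth. The C1qa list, with 47 cKIT+ cells, was too small to be among them. Of the groups with at least 40 cells it had the highest Hpgds, Ptgs1 and Ltc4s. For Alox15 they were Alox12e (r = 0.978), Cd200r4 (0.956) and Itga1 (0.954). Alox12e is a related lipoxygenase gene 21523 bases away on chromosome 11, with 25.02 CPM in Mcpt8-gated cKIT+ and 50.7 CPM in cKIT- cells and 0 in the Gzmb gate, and sharing of reads between these related genes cannot be judged from the counts. For Hdc they included Rab44 (0.947) and Igf1r (0.935), and for Slc18a2 Trbc2 (0.973), Galnt6 (0.972) and Trbc1 (0.969). Alox5ap was followed by Hcst (0.974), Fcgr3 (0.955) and Mboat7 (0.949), and Alox5 by Arap3 (0.941), Eml2 (0.925) and Ero1l (0.903). Ptgs1 went with Mctp1 (0.944), Ebi3 (0.940) and Clec4a2 (0.936), and Hpgds with Maf (0.915), Rnf213 (0.897) and Dst (0.883). Ltc4s, whose levels ranged only up to 15.7 CPM in these groups, had Nxpe5 (0.882), Tmem176a (0.856) and Tmem176b (0.839). Among the members Hdc and Alox5 were the closest pair (0.846), and Hdc and Hpgds had -0.29.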

How the data were processed

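Per the labels, bone marrow cells were sorted by flow cytometry and sequenced on the 10x Genomics platform. The authors deposited 1 matrix of raw UMI counts per gene and cell for each library, made with Cell Ranger 3.0.2 against mm10. The annotation release and the strand setting are not given in the sources used here. The members and lists were chosen with earlier results of these data known. For the cell filter alone, only genes seen in at least 40 cells of a library were counted, and all gene rows were kept for the levels. Following the study's methods, the lowest and highest 1% of cells by genes and the highest 1% by UMIs were dropped. This left 91108781 UMIs in the cKIT+ and 22869169 in the cKIT- library, in cells of 505 to 43698 and 635 to 21444 UMIs. UMIs were summed over the cells of a group and divided by the group's total (CPM), with exact Poisson, ratio and Clopper-Pearson 95% intervals (scipy 1.17.1, numpy 2.4.6, pandas 2.3.3, Python 3.11.15). A count of 0 allows up to 3 counts. A gene counted as higher or lower past 2-fold with at least 20 CPM in 1 group. No doublet caller was run: cells past several gates were set aside, and leaving out the 5% of cells with most UMIs was an alternative. TMM factors came from edgeR 4.0.16 (R 4.3.3), used for scaling only. Genes named beyond the members were those of the list past 2-fold, the fixed markers and the 3 genes most like each member, plus Ccl3 and a few list genes within 2-fold named after their values were seen. Of the genes most like Hdc, 1 is not reported here. On simulated counts, all 100 genes changed 4-fold and all 100 changed 8-fold were recovered among the 5557 genes tested between the libraries, with 0 false calls. Those counts had Poisson error alone, and only genes of at least 20 CPM were changed, so such recovery was nearly certain beforehand. The simulation held no differences between libraries, cells or depths, and so cannot show how often those give a call. Promoters came from RefSeq (GRCm38.p6) and gene positions from GENCODE M21 (GRCm38).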

Additional observations from a re-analysis of the deposited data

How the results depend on the processing

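Each count of members past 2-fold and each member's ratio was recomputed under other cell filters, scalings, CPM minimums and gate definitions. Of 124 counts 117 kept their value within 1.5 times and 7 moved. With counts this small, a step between 2 and 3 or between 3 and 4 members still counted as kept. Hdc, Slc18a2 and Alox5 made such steps. Of 432 ratios 295 stayed within their counting interval. In 13 the ratio lay on the other side of 1 from the reported value, 9 of them from UMIs per cell. Only 1 of these had been past 2-fold, that of Hdc over all cells, 0.956 from UMIs per cell. On that scale Slc18a2 had 0.648 and Alox5 0.807 over all cells, and Hdc had 0.897, Slc18a2 0.587 and Alox5 0.647 in Mcpt8-gated cells. Against the Mcpt8 gate it gave 0.775 for Hdc and 0.767 for Hpgds in the Prg2 gate and 0.920 for Slc18a2 in the Gzmb gate. UMIs per cell also left 1 member higher in cKIT- cells (Alox15), both over all cells and in Mcpt8-gated cells, since the depth gap enters that scale and moves the median log2 ratio of all genes to -1.12 and -0.98. In Mcpt8-gated cells this put 1.18% of genes higher and 48.1% lower, and against the Mcpt8 gate it put 1.62% higher and 33.1% lower in the Prg2 gate and 3.23% and 24.3% in the Gzmb gate. Without a CPM minimum, 2 members were lower in cKIT- cells over all cells (Ptgs1, Hpgds), 1 in Mcpt8-gated cells (Ptgs1), and 1 was higher in the Prg2 gate (Ptgs1), where 16.96% and 13.4% of all genes were lower and 12.06% higher. For the Gzmb gate the count of higher members was 0 at a minimum of 50 CPM, where 9.45% of all genes were higher. Hpgds, at 24.3 CPM, could not reach that minimum. The count was also 0 when cells were gated after thinning, where 11.8% of all genes were higher. Hpgds was under the 20 CPM minimum there, and its ratio was at least 8.53 in all 15 alternatives. With every cell given the same weight, 15.1% of genes were higher and 8.25% lower in the Prg2 gate.

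Outside UMIs per cell, Alox15 ranged from 7.22 to 8.29 over all cells and from 2.59 to 6.28 in Mcpt8-gated cells, and Alox5ap from 3.24 to 3.56 and from 2.14 to 3.06. Hdc in Mcpt8-gated cells ranged from 1.64 to 2.08 and passed 2-fold with equal cell weights, thinned cells or a gate of 3 UMIs alone. Alox5 in Mcpt8-gated cells ranged from 0.896 to 1.59, and the lowest values of Alox15 and Alox5 came from leaving out gated cells with another list's genes, a choice made after seeing the data that left 152 of 3444 cKIT+ cells. Between a gate's threshold and its double lay 325 cKIT+ and 347 cKIT- cells for Mcpt8, 26 cKIT+ cells for Prg2 and 83 for Gzmb. No paired analysis was possible because each sort is 1 library and the labels give no replicate numbers, and for the same reason no library could be left out. For Ltc4s, Ptgs1 and Hpgds the limit is the background, whose cells held only 1, 1 and 3 of their UMIs. Their levels in the Mcpt8 gate lay within its wide intervals, so gate and background could not be told apart or equated.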

Other observations

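Members were also read in the cells past several gates, which were set aside from the comparisons. The 61 cKIT+ cells past the Mcpt8 and Prg2 gates had 331 CPM of Hdc, 418 CPM of Alox5ap and 56.0 CPM of Alox15. The 51 cKIT+ cells past the Mcpt8 and Gzmb gates had 237 CPM of Hdc, 118 CPM of Slc18a2, 38.8 CPM of Alox15 and 28.4 CPM of Hpgds. Single cells and doublets were not told apart in these groups.

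Hpgds also differed between the libraries in cells of the Cd74 list, antigen-presentation genes, with 147 CPM from 141 UMIs in cKIT+ and 6.74 CPM in cKIT- cells. Ptgs1 had 32.3 and 1.35 CPM in the same cells. Other genes moved with them there, with 413 and 39.1 CPM of Maf, 711 and 112 CPM of Tmem176a, and 746 and 144 CPM of Tmem176b, and the part of the make-up of these cells in the Hpgds values was not tested. In cells of the S100a8 list Ptgs1 had 75.0 and 63.7 CPM, while Alox5ap had 639 and 1147 CPM and Alox5 75.8 and 159 CPM. These are values of 1 library each, and the lists hold 148 and 207 (Cd74) and 440 and 62 (S100a8) cells.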
